A study of Mus musculus with 7 samples.

Results

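The regions described here are the positions in the mouse genome where IRF4 was called bound in wild-type (WT) regulatory T cells and where no IRF4 summit was called in cells lacking RelA. They are referred to as WT-only summits. A summit is the 1 bp position of highest signal in a peak of a chromatin immunoprecipitation sequencing (ChIP-seq) experiment. Members were chosen by their calls in the 2 IRF4 lists: a WT summit was WT-only when it lay on chromosomes 1 to 19 or X and the nearest RelA-deficient (p65KO) IRF4 summit was more than 1 kb away. Runs of at least 3 p65 summits, each at most 50 kb from the next, were left out and are called dense p65 regions. There were 1800 such summits among the 5630 of the whole WT IRF4 list. Another 51 WT summits without a p65KO summit were on unplaced or mitochondrial sequence and 44 in dense p65 regions, and they are not part of the set. WT summits outside those places that did have a p65KO summit within 1 kb numbered 3633 and are called shared.

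IRF4 is a transcription factor induced by T cell receptor signalling. It binds weakly on its own to interferon-type elements and strongly beside partners, among them BATF and JUN at composite AP-1 elements and PU.1 or SpiB at ETS elements. In regulatory T (Treg) cells, the Foxp3-expressing lineage that restrains immune responses, IRF4 is needed for the activated, effector state. RelA, also named p65, is a subunit of canonical NF-κB. It moves to the nucleus after signalling through the T cell receptor, costimulatory receptors and members of the TNF receptor family, and binds κB elements.

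All samples were spleen Treg cells of C57BL/6 background. The WT IRF4 list came from 3 samples of WT cells and the p65KO IRF4 list from 2 samples of cells labelled p65KO, all stimulated for 48 h with antibodies to CD3 and CD28 and precipitated with the M-17 antibody. The p65 list came from 2 samples of WT cells given PMA and ionomycin for 30 min and precipitated with the C-20 antibody. The labels do not say how RelA was removed, in which cell types, in what share of cells, or how old the mice were. Expression was not measured, so neither the Treg label nor the loss of RelA could be checked against marker levels or RelA itself.

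Each group was deposited as 1 list of summits with replicates combined. No value below therefore has an error between samples, and intervals are 95% Wilson intervals that cover counting error over summits only. Each summit carries the authors' score, a −log10 significance value. Because membership was decided by the same 2 IRF4 lists, shares and scores that follow are descriptions and were not tested. Positions are mm9 coordinates, 1-based. Gene names, gene features and DNA sequences were not assigned, since no mm9 genome or annotation was used here.

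WT-only summits made up 1800 of the 5433 WT IRF4 summits on placed chromosomes outside dense p65 regions, a share of 33.1% (interval 31.9 to 34.4). They were mostly low in the WT list. Their scores ran from 7.64 to 149, with a median of 18.1 and quartiles of 14.9 and 23.7. The shared summits had a median WT score of 34.8, with quartiles of 22.8 and 56.2. The shared WT scores ran from 7.75 to 319, so above 149 there were shared summits alone. Of the WT-only summits, 739 (41.1%) scored at least 20, 216 (12%) at least 30 and 62 (3.44%) at least 40.

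**Figure D1:**
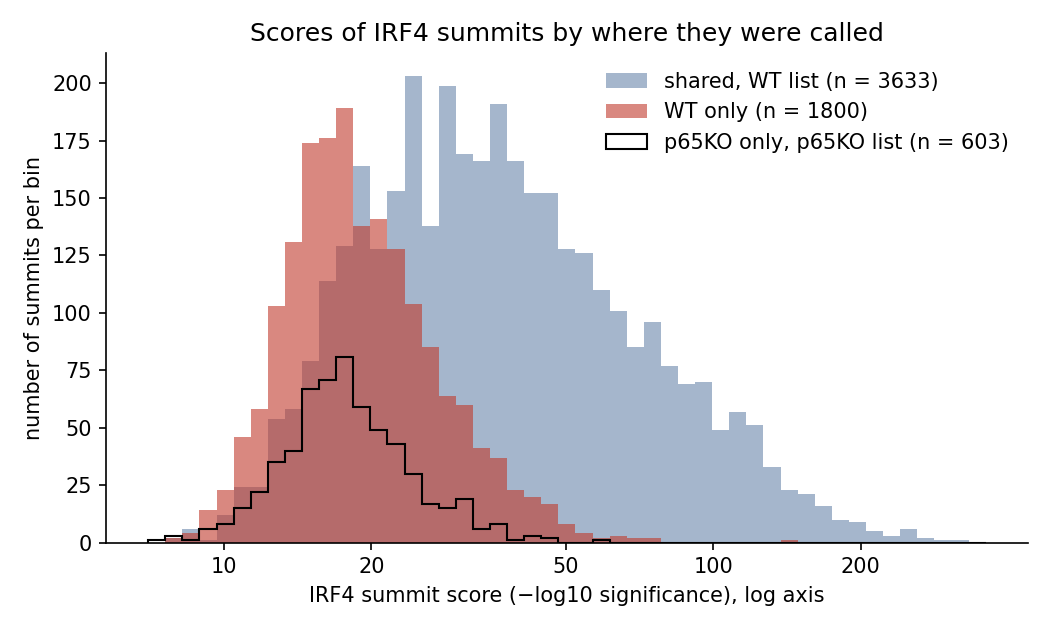
Number of IRF4 summits per score bin (score on a log axis) for 3633 shared summits with their WT score, 1800 WT-only summits and, as an outline, 603 summits called only in p65KO cells with their p65KO score. The WT-only summits peak near their median of 18.1, below the shared median of 34.8, and the p65KO-only outline peaks at a similar score, with a median of 17.4.

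The share fell with each step up in WT score. In the lowest decile (scores 7.64 to 14.3) 370 of 544 WT summits were WT-only, or 68.0% (64.0 to 71.8). In the fifth decile (22.7 to 26.6) the share was 36.9% (33.0 to 41.1), and in the eighth (39.1 to 50.6) it was 10.2% (7.91 to 13.0). The ninth decile held 17 of 543, or 3.13% (1.96 to 4.96), and the highest held 2 of 544. Most WT-only summits were therefore weak in WT, and a thin tail was strong.

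**Figure D2:**
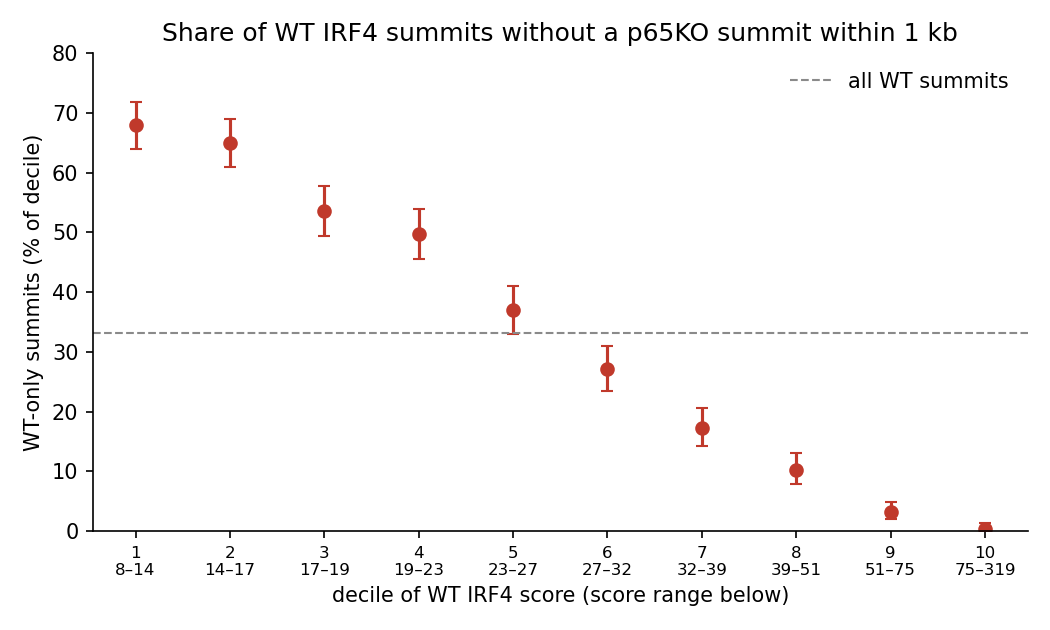
Percent of WT IRF4 summits that were WT-only in each decile of the WT score, with 95% Wilson intervals as bars and the overall share of 33.1% as a dashed line. The share goes down at every step, from 68.0% in the lowest decile to 0.368% in the highest.

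Low scores in this list came in steps. The 6 most frequent values among WT-only summits lay between 13.8 and 18.8, and each was carried by 28 to 35 of them. A score held by at least 1 other WT summit was found at 979 WT-only summits (54.4%, 52.1 to 56.7) and at 1015 shared summits (27.9%, 26.5 to 29.4). Small differences in score among the weak WT-only summits therefore order them only coarsely.

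The shared summits show what p65KO score went with a given WT score where a p65KO summit was called. Shared summits with a WT score above 15 and up to 20 had a median p65KO score of 20.1, with 5% of them below 12.9. In that WT range there were 458 shared and 595 WT-only summits. Among shared summits above 30 and up to 40 in WT, the median p65KO score was 28.4 and the lowest 11.2. There were 620 of these and 154 WT-only summits.

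At high WT scores the p65KO scores of shared summits lay well above the lowest score of the p65KO list. Of the 811 shared summits with a WT score above 60, the lowest p65KO score was 13.1, and 5% lay below 30.9. The lowest score anywhere in the p65KO list was 7.504. In the same WT range 10 WT-only summits had no p65KO summit within 1 kb. Between 40 and 60 the lowest p65KO score of 698 shared summits was 10.6, and 5% lay below 18.2. In that range lay 52 WT-only summits. These p65KO scores exist only where a summit was called, so they do not show how far WT-only summits fell under the p65KO cut-off.

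**Figure D3:**
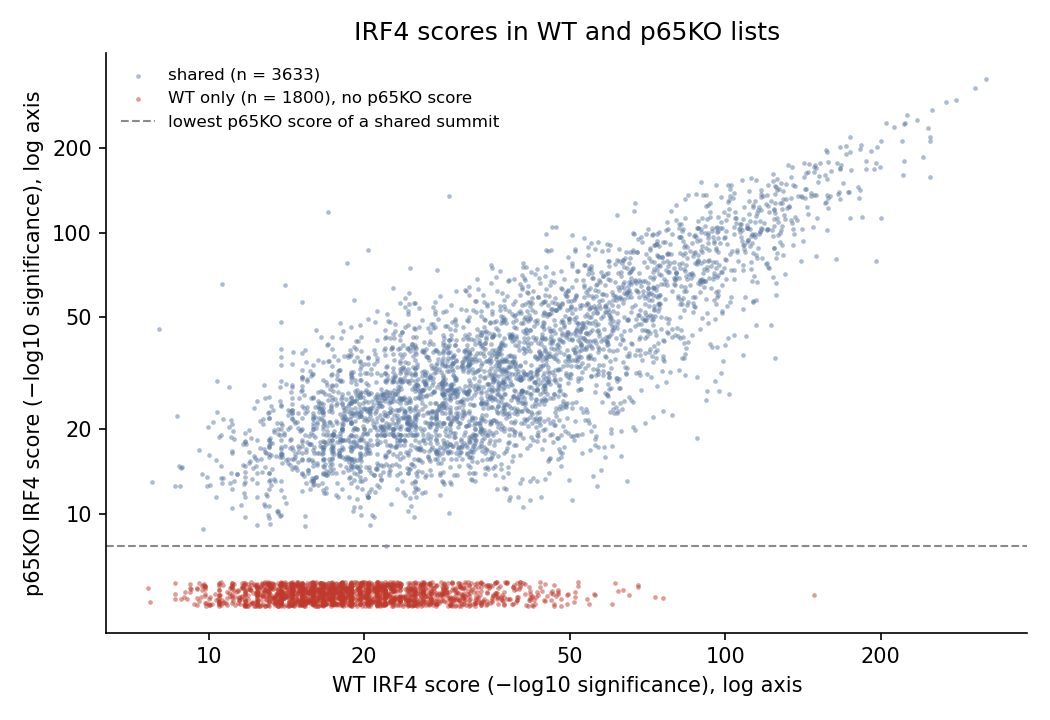
IRF4 score in WT against IRF4 score in p65KO cells at 3633 shared summits, both on log axes. The 1800 WT-only summits have no p65KO score and are placed in a band under the dashed line, which marks the lowest p65KO score of a shared summit, 7.71; their height within the band carries no value. The band is dense at WT scores under 30 and thins to 10 summits above 60.

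The highest WT-only summit was chromosome 3 at 94183949. It scored 149 and ranked 76 in the whole WT list. Its nearest p65KO summit was 573951 bp away and its nearest other WT summit 573929 bp, so it stood alone in WT too. The nearest p65 summit was 5869797 bp away. It was the only WT-only summit above 100, where 283 shared summits lay.

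A further 9 WT-only summits scored above 60. Chromosome 4 at 32406763 scored 75.8 and had a p65KO summit 31560 bp away. Chromosome 9 at 123782258 scored 73.2, with the nearest p65KO summit at 36868 bp. Chromosome 5 at 42055698 and chromosome 9 at 88531872 had the same score, 67.9, but differed in their surroundings. The first had no p65KO summit within 3097819 bp, the second had one at 94880 bp. Chromosome 3 at 56379590 (65.2) was another site far from other binding, with 1851683 bp to any WT summit. Chromosome 8 at 75245353 scored 63.5 and had a WT summit 38078 bp away, while its nearest p65KO summit was 377582 bp away. Chromosome 10 at 89062254 (62.0) lay closest to shared binding, 9428 bp from a shared summit. Chromosome 3 at 126396381 (61.1) and chromosome 9 at 54838380 (60.5) had shared summits at 32628 and 117361 bp.

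The next 10 by score ran from 55.8 to 49.6. Chromosome 5 had 2 of them, at 66459648 (55.8) and 54000209 (51.96), each with a shared summit less than 20 kb away. Chromosome 11 at 6059188 (55.8) had another WT summit 424 bp away, and its nearest p65KO summit was at 152761 bp. Chromosome 19 had 2, at 20498838 (54.5) and 61275661 (51.1), and the first was 1439360 bp from any other WT summit. Chromosome 15 at 64078705 (53.9) lay 11325 bp from a shared summit. Chromosome 10 at 40091183 (51.8) and chromosome 4 at 99614870 (49.6) lay 80471 and 43755 bp from one. Those on chromosome 12 at 75905244 (51.1) and chromosome 8 at 24206056 (51.0) were the 2 with p65, described further on. Of all 20 highest WT-only summits, 4 had no p65KO summit within 1 Mb, 8 had one between 50 kb and 1 Mb, and 7 between 10 and 50 kb. Another WT IRF4 summit lay within 10 kb of 2 of the 20, and a p65 summit lay within 200 bp of 2. Over all 5433 WT summits the shares were 23.5% and 1.62%.

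The same rule applied in the other direction gave the most alike set. Of 4212 p65KO IRF4 summits in the same parts of the genome, 603 (14.3%, interval 13.3 to 15.4) had no WT summit within 1 kb. Their p65KO scores had a median of 17.4 and quartiles of 14.8 and 21.1, close to the WT-only values. The WT list is the longer and rests on more samples, and depth is unknown. The part of list length in these shares was not tested. When the WT list was cut by score to the 4312 summits of the p65KO list, which removed WT scores under 17.6, the shares were 23.4% WT-only (976 of 4177) and 23.9% p65KO-only (1007 of 4212). With lists of equal length, then, the larger share of summits without a partner in WT was no longer seen. The cut also takes away WT partners of p65KO summits. With scores of at least 20 in both lists, a setting chosen after seeing the data, the larger WT share was seen. It was 31.8% WT-only (1176 of 3701) and 15.8% p65KO-only (473 of 2993).

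A difference between the directions was seen among high summits, again without a test. At scores of at least 40, 62 of 1571 WT summits were WT-only and 6 of 1271 p65KO summits were p65KO-only. With the WT list cut to equal length the second count was 11. The first count could not change, because the cut removes only WT scores under 17.6. At scores of at least 60 the counts were 10 of 821 and 0 of 686. Ranks, which do not depend on a shared scale, gave 14 WT-only summits among the highest 1000 WT summits. Among the highest 1000 p65KO summits 2 were p65KO-only, or 4 with lists of equal length. Among the highest 3000 the counts were 423 and, at equal length, 349.

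The 1 kb limit of the rule touched few sites. Of the shared summits, 3552 (97.8%) had their p65KO summit within 200 bp, with a median distance of 18 bp. The remaining 81 (2.23%) had it farther off, up to 982 bp. Of the WT-only summits, 54 (3.00%) had a p65KO summit within 2 kb. Just beyond the limit lay chromosome 7 at 107598986 (WT score 25.6, p65KO summit at 1014 bp) and chromosome 11 at 52075613 (19.7, 1028 bp). They were followed by chromosome 11 at 96989331 (28.8, 1037 bp), chromosome 9 at 32294567 (18.3, 1059 bp) and chromosome 2 at 139497707 (16.6, 1109 bp). Just inside it, and so counted as shared, lay chromosome 2 at 29482980 (26.0, 982 bp) and chromosome 9 at 14303039 (16.3, 974 bp). Chromosome 3 at 68631747 (57.3, 961 bp), chromosome 15 at 102548040 (25.9, 936 bp) and chromosome 9 at 32328923 (13.6, 919 bp) came next. The WT scores ran from 16.6 to 28.8 beyond the limit and from 13.6 to 57.3 inside it.

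Distances from WT-only summits to the nearest called p65KO summit varied widely. The median distance to the nearest p65KO summit was 64.8 kb, with quartiles of 19.2 and 199 kb. For scale, the median distance from WT-only summits to the nearest other WT summit was 42.3 kb. Between 10 and 50 kb lay 522 WT-only summits (29.0%), and between 100 kb and 1 Mb 652 (36.2%). No p65KO summit was found within 1 Mb of 70 (3.89%). At the near end, 9 WT-only summits had a p65KO-only summit within 2 kb, and 38 (2.11%, 1.54 to 2.88) had one within 10 kb. Pairs closer than 1 kb are removed by the rule. The strongest of the 9 pairs, chosen after its values were seen, was chromosome 1 at 133005340 (WT score 34.0), 1861 bp from a p65KO-only summit at 133007201 (p65KO score 32.0).

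The share with another WT IRF4 summit nearby was a little lower for WT-only than for shared summits, with no test of the difference. Another WT summit lay within 10 kb of 375 WT-only summits (20.8%, 19.02 to 22.8) and of 901 shared summits (24.8%, 23.4 to 26.2), against 23.5% of all 5433. The share was the lower one for WT-only summits in each quartile of the WT score. In the lowest quartile it was 22.4% (19.8 to 25.2) against 27.5% (23.7 to 31.6), and in the third 17.8% (13.8 to 22.8) against 24.2% (21.7 to 26.8). In the highest quartile it was 8 of 40 WT-only summits (interval 10.5 to 34.8%), against 24.2% (22.0 to 26.6). The intervals overlapped in all 4 quartiles. The rule itself bears on this, because a WT summit within 1 kb of another summit that has a p65KO partner is itself likely to be counted as shared.

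**Figure D4:**
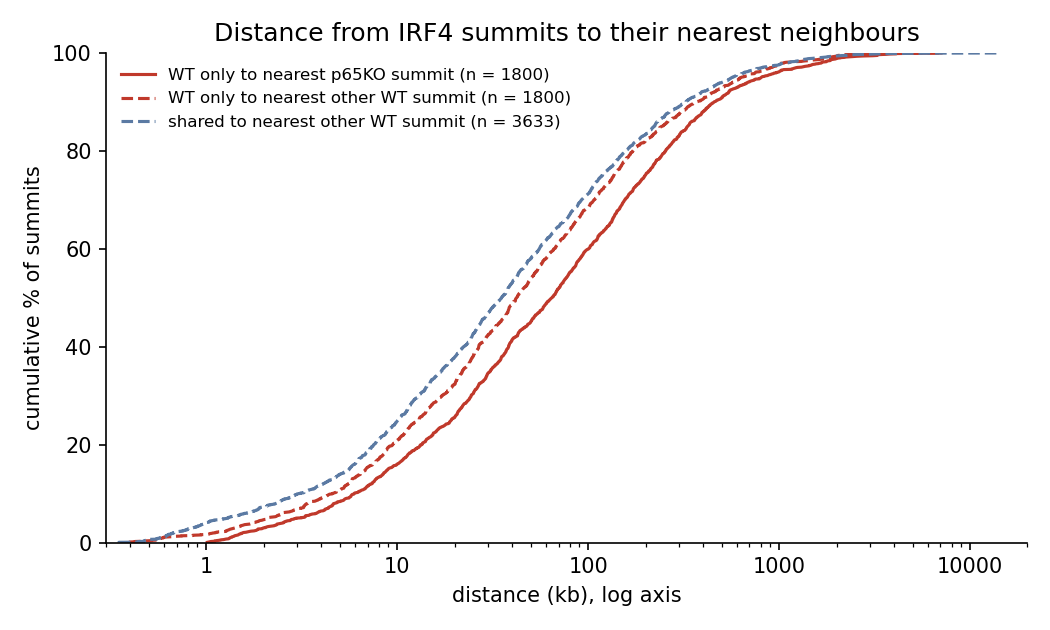
Cumulative percent of summits against distance (kb, log axis) from each WT-only summit to the nearest p65KO summit and to the nearest other WT summit, and from each shared summit to the nearest other WT summit. The curve of WT-only summits to other WT summits runs a little to the right of the shared one, with medians of 42.3 and 35.2 kb, and the curve to p65KO summits starts at 1 kb, where the rule sets it.

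Of the WT-only summits, 152 had another WT-only summit within 10 kb (8.44%, 7.25 to 9.82), and 267 shared summits had a WT-only one (7.35%, 6.55 to 8.24). A shared summit lay within 10 kb of 258 WT-only summits (14.3%, 12.8 to 16.0). When WT-only summits at most 10 kb apart were joined, 1648 (91.6%) had no other WT-only summit joined to them, 134 formed 67 pairs and 18 formed 6 groups of 3. The group with the highest summed score was chromosome 4 from 87812908 to 87823332, with scores from 20.5 to 36.1 and a p65KO summit 2044 bp outside it. Chromosome 15 from 62661048 to 62666953 had scores from 11.5 to 48.1. The others were chromosome 14 from 20783599 to 20794791 (11.7 to 42.2), chromosome 1 from 80317934 to 80328911 (13.1 to 22.5), chromosome 12 from 109883886 to 109885091 (11.4 to 18.8) and chromosome 10 from 66327015 to 66333957 (11.0 to 15.2). None of the 6 had a shared or a p65KO-only summit inside it. These groups were of mixed height, and 3 of the 6 had no score above 25.

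The kind of neighbour differed little beyond 2 kb. Where the nearest WT summit lay 2 to 10 kb away, it was itself WT-only for 94 of 291 WT-only summits (32.3%, 27.2 to 37.9) and for 197 of 637 shared summits (30.9%, 27.5 to 34.6). Between 10 and 50 kb the shares were 34.6% (30.9 to 38.5) and 32.4% (29.9 to 35.1). Both are close to the 33.1% of all WT summits that were WT-only. Within 2 kb they were 46.4% (36.2 to 57.0) of 84 and 17.0% (13.0 to 22.0) of 264, a range that the 1 kb rule reaches into.

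Shared summits beside a WT-only summit had p65KO scores like those of other shared summits, and a somewhat higher median WT score. The 267 shared summits within 10 kb of a WT-only one had a median WT score of 37.2 and a median p65KO score of 30.7. Their p65KO score minus WT score had a median of -2.77, with quartiles of -11.7 and 7.57. At the other 3366 shared summits the median difference was -2.52, with quartiles of -12.7 and 5.93. The medians lay 0.25 apart, well inside the spread of either set.

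All 20 chromosomes held WT-only summits. The share of WT summits that were WT-only was highest on chromosome 8 (37.6%, 31.2 to 44.5) and chromosome 4 (37.6%, 32.3 to 43.2). It was lowest on chromosome 14 (25.7%, 20.2 to 32.1) and chromosome 1 (28.9%, 24.998 to 33.2). Chromosomes differ in how strong their IRF4 summits are, so each share was set beside the one that its summits' score deciles alone would give. Chromosome 14, with a median WT score of 30.1, would have 29.3% and chromosome 1 32.6%. Chromosome 8 would have 31.8% and chromosome 4 32.9%. On none of the 20 chromosomes did the interval leave out the share given by the deciles. On chromosome X 17 of 58 WT summits were WT-only (29.3%, 19.2 to 42.0).

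**Figure D5:**
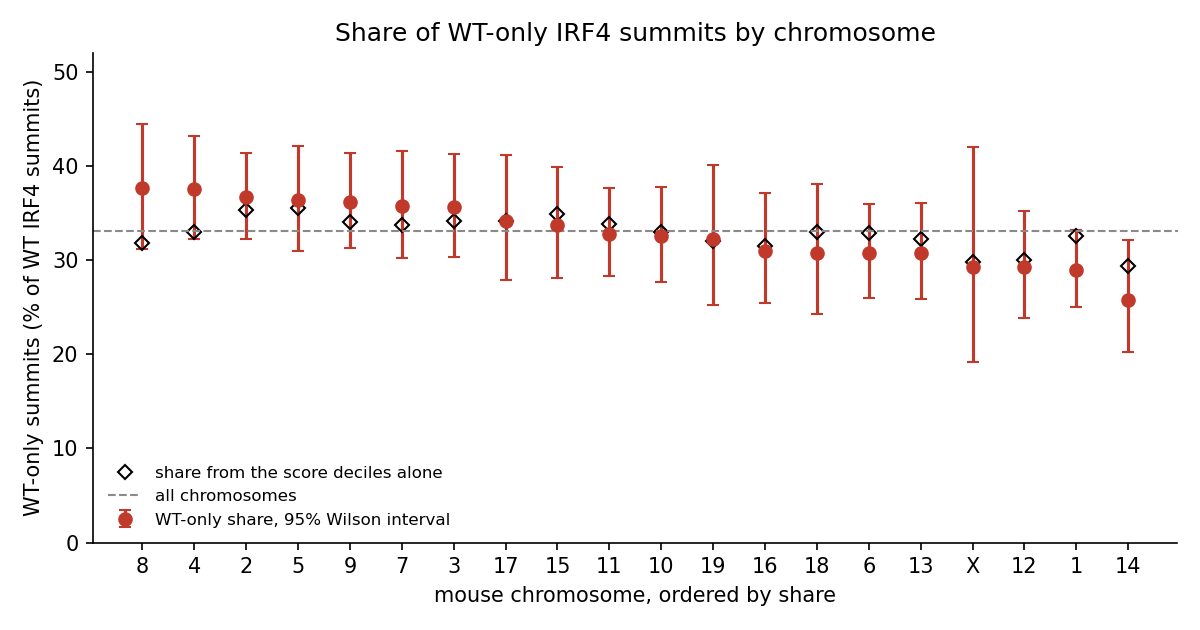
Percent of WT IRF4 summits that were WT-only on each mouse chromosome, ordered by share, with 95% Wilson intervals. Open diamonds give the share that the score deciles of a chromosome's summits would give, and the dashed line the overall 33.1%; every diamond lies within its chromosome's interval.

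Binding of p65 was rare at WT-only summits. Within 200 bp, 15 of the 1800 had a p65 summit (0.833%, 0.506 to 1.37), as did 73 of the 3633 shared summits (2.01%, 1.60 to 2.52), against 1.62% of all 5433 WT summits. Among p65KO-only summits it was 17 of 603 (2.82%, 1.77 to 4.47). RelA was mapped after 30 min of PMA and ionomycin and IRF4 after 48 h of receptor stimulation, so RelA binding at the time of the IRF4 map was not measured. The rule uses the p65 list through the dense regions it leaves out. Keeping those regions raised the WT-only share to 2.66% (49 of 1844) and the shared one to 3.23% (119 of 3689). Seen from p65, 13 of the 307 p65 summits outside dense regions and unplaced sequence had a WT-only IRF4 summit within 200 bp (4.23%, 2.49 to 7.11), and 66 had a shared one (21.5%, 17.3 to 26.4).

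Within quartiles of the WT score the shares with p65 lay close together, though quartiles match the scores of the 2 sets only loosely. In the lowest quartile of WT score (up to 18.1) p65 was found at 5 of 902 WT-only summits (0.554%, 0.237 to 1.29) and at 3 of 484 shared ones (0.620%, 0.211 to 1.81). In the second quartile the counts were 6 of 583 (1.03%) and 11 of 748 (1.47%), and in the third 2 of 275 (0.727%) and 9 of 1083 (0.831%). In the highest quartile, with scores from 44.2 to 319, they were 2 of 40 (5.00%, 1.38 to 16.5) and 50 of 1318 (3.79%, 2.89 to 4.97). The 2 sets were not alike in score there: 10 of the WT-only and 811 of the shared summits scored at least 60. The intervals of the 2 sets overlapped in each quartile. The difference within quartiles was not tested.

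The 15 WT-only summits with p65 were these. Chromosome 12 at 75905244 had an IRF4 score of 51.1 and a p65 score of 10.6, with the summits 149 bp apart. Chromosome 8 at 24206056 scored 51.0 for IRF4 and 5.21 for p65, at 64 bp. These 2 were the highest in IRF4 and both had p65 scores near or under the p65 list's median of 9.61. Chromosome 19 at 23431964 came next, with 36.1 for IRF4 and 14.8 for p65, and its summits were 7 bp apart. Chromosome 12 at 80747582 had 28.6 and 7.499, at 193 bp, and chromosome 11 at 34444744 had 25.9 and 24.0, at 87 bp.

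In 6 of the 15 the p65 score was above the IRF4 score, a share like that at shared summits with p65, where it was so in 27 of 73. Chromosome 7 at 143434511 had the highest p65 score, 43.6, beside an IRF4 score of 18.8, at 6 bp. Chromosome 19 at 39334518 had 28.2 for p65 and 18.8 for IRF4, at 5 bp. Chromosome 1 at 26744433 had 21.2 for p65 and 19.95 for IRF4, at 11 bp. Chromosome 6 at 30754927 and chromosome 14 at 54847181 both had a p65 score of 19.2 and an IRF4 score of 13.8, at 197 and 49 bp. Chromosome 4 at 146728702 had 15.9 for p65 and 11.3 for IRF4, and lay 95 bp outside a dense p65 region.

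The last 4 had p65 scores from 4.15 to 8.82, under the median of the p65 list. Chromosome 4 at 3017061 had an IRF4 score of 23.3 and a p65 score of 8.82, and chromosome 7 at 66833203 had 11.8 and 8.73. Chromosome 5 at 15112859 had 20.3 and 6.65 and lay 3 bp outside the edge of a dense p65 region, with 11 other p65 summits within 50 kb of its partner. Chromosome 9 at 20940437 had 8.61 and 4.15. Without the 2 summits at the edges of dense regions, 13 WT-only summits with p65 remained.

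Compared with shared summits at p65 sites, these pairs had lower median scores, and a smaller share had its p65 and IRF4 summits within 20 bp. Neither difference was tested, and the 2 sets were not matched for IRF4 score. The highest quartile of the WT score held 2 of the 15 WT-only and 50 of the 73 shared sites. The median p65 score was 14.8 at the 15 WT-only summits and 45.5 at the 73 shared ones, and the median IRF4 score 19.95 and 70.0. The 20 bp distance was met at 5 of 15 WT-only and 42 of 73 shared sites. Without an input library or a p65 precipitation from p65KO cells here, the part of antibody-independent signal at these 15 sites was not tested.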

How the data were processed

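The authors deposited 3 lists of 1 bp peak summits, 1 per group, with a score on a −log10 scale. The sources do not say which significance value, p or q, was converted to −log10. MACS2 2.1.0, Subread, featureCounts and the build mm9 are named in the submitters' processing notes. Each deposited list has its q cut-off in its name, 1e-06 for both IRF4 lists and 0.05 for p65. Peaks were called without input per the peak names. No source used here describes the pooling of replicates, and read depth is unknown because the lists hold no counts.

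Groups came from the sample titles. Distances between summits were computed on 1-based positions, and shares were given 95% Wilson intervals. Other WT summits were sought among the 5433 on placed chromosomes outside dense p65 regions. The nearest p65KO and p65 summits were sought in their whole lists. Summits are not replicates, so no test was run. The members, lists and settings were chosen with earlier results of these data known. Sites named are the 20 highest WT-only summits, the 5 nearest to the 1 kb limit on each side, every WT-only summit with p65 within 200 bp, and the 5 groups with most WT-only summits, to which the sixth of equal size was added. The matching was tested on simulated summits. Planned work on genomic location, motifs and gene lists needs an mm9 genome or annotation, which was not used here, and was not run. Python 3.11.15, numpy 2.4.6, pandas 2.3.3, statsmodels 0.14.6, scipy 1.17.1 and matplotlib 3.10.9 were used.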

Additional observations from a re-analysis of the deposited data

How the results depend on the processing

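The WT-only share of 33.1% was 34.6% with partners sought within 200 bp and 30.4% within 5 kb. It was 11.8% among WT summits above the list's median score and 23.4% with lists of equal length. With summits of at least 20 in both lists, a setting chosen after seeing the data that also removes weaker partners, it was 31.8%. It stayed within its interval with partners within 500 bp or 2 kb, dense p65 regions kept, autosomes only, and 1 summit per 500 bp. The p65KO-only share of 14.3% became 23.9% with lists of equal length and 15.8% with scores of at least 20 in both. These 2 settings were also chosen after seeing the data, and both remove WT partners. The WT-only median score stayed within its interval under each of its 5 settings. The share with p65 was 1.61% of WT-only and 2.89% of shared summits with p65 within 10 kb, and 2.66% and 3.23% with dense regions kept. With p65 summits above their median score it was 0.50% of WT-only summits. In each of these settings, and within 100 bp, 500 bp and 1 kb, the WT-only share was the lower. None of these settings matched the 2 sets for WT score. Within quartiles of that score the shares lay close together, and in the highest alone the WT-only share was the larger (5.00% against 3.79%). Another WT summit was found within 5 kb of 10.6% of WT-only and 13.9% of shared summits, and within 25 kb of 38.0% and 42.6%. With only WT summits above the WT median score kept, both as sites and as neighbours, the 10 kb shares were 10.9% and 13.2%. The settings change which summits or distances are counted, and other causes were not tested. No paired analysis was possible because each group was deposited as 1 list with no values per replicate, and for the same reason no replicate could be left out. Read depth, which the lists do not hold, limits every comparison of list lengths.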
